A study of Mus musculus with 24 samples.

Results

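The genes of fatty acid oxidation and the targets of the nuclear receptor PPAR-alpha were followed across 3 regions of the mouse intestine. The module was a list of 35 gene symbols out of the 21441 genes in the expression tables, and all 35 were present. The list was chosen with earlier results of these data known, so it is not independent of them. By role it held 2 regulators, 5 genes of fatty acid uptake, binding and activation, 3 of the carnitine shuttle and 9 enzymes of mitochondrial beta-oxidation. It also held 3 genes of electron transfer, a group of 5 made of peroxisomal enzymes and an omega-hydroxylase, 2 acyl-CoA thioesterases and 6 other targets. The study compared mice given calcitriol (1,25-dihydroxyvitamin D3), the hormone that activates the vitamin D receptor, with vitamin D-deficient mice, in duodenum, ileum and colon. All mice were wild-type C57BL6J, with ages of 10 to 14 in a unit that the labels do not state. Calcitriol was injected 3 times in the treated mice, 1 ng for each g of body weight, and the injections came 48, 24 and 6 h ahead of the end of the experiment, while the labels give the treatment of the deficient mice (minusD) as none. Per region the labels list 2 females among 4 treated samples and 1 female among 4 deficient samples. Tables of 4 treated and 4 deficient libraries were used for duodenum and for colon, and one of 4 treated and 3 deficient libraries for ileum, 23 libraries in all. The libraries were made from poly(A) RNA of tissue that holds many cell types, so that fewer cells of a type and less RNA per cell cannot be told apart.

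Fatty acid oxidation breaks fatty acids down to acetyl-CoA. Long-chain fatty acids are activated to acyl-CoA, carried into mitochondria by the carnitine shuttle and shortened there step by step, while peroxisomes take very long chains and dicarboxylic acids. PPAR-alpha is a transcription factor that binds fatty acids, pairs with RXR on DNA and drives many genes of this route in fasting and on fatty diets, in liver and also in the absorptive cells of the small intestine. Vitamin D receptor uses the same partner, RXR.

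PPAR-alpha and RXR bind a direct repeat of hexamers spaced by a single base (DR1). RefSeq windows of build GRCm38.p6 that run from 250 bases before to 50 bases after the start of the gene were matched for 30 of the 35 members. Acaa2, Decr1, Cyp4a10, Angptl4 and Vnn1 had no matched window and were not searched. Sequences are shown for the members that carried a DR1 match on either strand, because Fabp1, Pdk4 and Acadl among them are the genes on which many of the values below turn. The 13-base pattern of AGGNCA repeated after a free base was found in 1 of the 30 windows, that of Fabp1, and in 0.451% of the 27025 gene windows searched. Fabp1 encodes the liver-type fatty acid binding protein. Its 250 bases before the start (chr6:71199629-71199878, GRCm38.p6, plus strand) are printed with the match in capitals, which begins 67 bases before the start and lies on the minus strand.

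Fabp1: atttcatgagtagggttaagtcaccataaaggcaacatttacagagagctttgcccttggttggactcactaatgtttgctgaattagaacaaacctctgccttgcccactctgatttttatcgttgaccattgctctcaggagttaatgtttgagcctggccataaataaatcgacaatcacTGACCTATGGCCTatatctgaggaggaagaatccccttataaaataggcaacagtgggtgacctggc

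The shorter core GGNCANAGG, which the longer pattern contains, was found in the windows of 5 of the 30 members and in 9.61% of all windows. Its matches in the other 4 members are given with 10 bases on either side, read along the strand of the gene where capitals that read CC at their 5′ end are matches on the opposite strand. They lie at chr1:66863293-66863321 for Acadl, chr6:5496429-5496457 and chr6:5496495-5496523 for Pdk4, chr7:28825134-28825162 for Ech1 and chr9:55512299-55512327 for Etfa.
Acadl: tccggccgccCCTCTGTCCgcctgccccc
Pdk4, nearer match: tagtgaccgcGGCCAAAGGgaggagccca
Pdk4, farther match: tccctctcacCCTTTGCCCcttgcaggcc
Ech1: cgtcccactgGGCCAAAGGtttaagcaac
Etfa: cacacccttaCCTTTGCCCtactcccaag
The genes of these 4 members lie on the minus strand for Acadl, Pdk4 and Etfa and on the plus strand for Ech1. In all, 10 patterns were searched, and those printed were chosen after the matches were seen. The 6-base pattern AGGTCA, which overlaps some DR1 matches, was in 7 of the 30 windows (Acadm, Acadvl, Cd36, Cpt1a, Creb3l3, Fabp1 and Plin2) and in 18.1% of all windows. A repeat of the kind the vitamin D receptor binds, GGNTCA repeated after 3 free bases, was in 0 of the 30 windows and in 0.0666% of all. A match describes letters in a window and is no evidence of binding.

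Libraries carry names of 2 kinds in the tables. Treated libraries are 3xD 1, 3xD5711, 3xD5720 and 3xD5734. Deficient libraries are Vehicle 1, Vehicle 2, Vehicle 3 and, in duodenum and colon, minusD5718. Libraries with a 4-digit number thus make up 3 of the 4 treated and at most 1 of the deficient libraries of a region, and the rest have a serial number. Read totals recovered from the expression values were 12235936 to 15270522 in the 4-digit libraries and 18855578 to 31090296 in the serial libraries, with no overlap in any region. More Xist than Ddx3y RNA was found in 3 of 4, 2 of 3 and 3 of 4 of the 4-digit libraries of duodenum, ileum and colon and in 0 of 4 serial libraries of each region. Cyp24a1, the calcitriol-degrading enzyme induced by the vitamin D receptor, was at 64.9 to 640.5 FPKM (fragments per kilobase of transcript, scaled to library size) in the treated duodenum libraries, 5.34 to 543.1 in ileum and 2.67 to 369.7 in colon, against at most 0.418 in any deficient library. Library 3xD5720 stood apart in other transcripts. Its colon sample held 240.1 FPKM of the liver transcript Alb (at most 0.776 in the other colon libraries) and a summed 17492 FPKM of 6 exocrine pancreas transcripts. Its ileum sample had the lowest sum of 12 villus enterocyte markers, 10949 FPKM, against 15136 to 20748 in the others. The 8 stomach markers summed to 6222 to 12328 FPKM in the 4-digit libraries of the duodenum and to 39.5 to 214 in the serial ones.

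The members differed in level along the intestine, as measured in mean FPKM over all libraries of a region. They were highest in duodenum for 19 members, in ileum for 4 and in colon for 12. The tables of the 3 regions were normalised separately, so the order of the levels is a description without a test. Fabp1 averaged 7794 ± 2168 FPKM (SD, n = 8) in duodenum, 618 ± 717 (n = 7) in ileum and 21.3 ± 17 (n = 8) in colon. Creb3l3, a membrane-bound transcription factor that works with PPAR-alpha, averaged 283 ± 47.1 FPKM in duodenum, 165 ± 26.1 in ileum and 9.81 ± 6.08 in colon. Decr1, the mitochondrial reductase for unsaturated acyl-CoA, averaged 76.6 ± 6.53, 48.2 ± 3.48 and 37.1 ± 3.71 FPKM in the same order. For these 3 genes alone no library of a region fell within the range of another region.

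Other members peaked elsewhere. Vnn1, the pantetheinase vanin-1, averaged 127 ± 23.0 FPKM in ileum and about the same low level, 11.0 FPKM, in duodenum (SD 4.57) and colon (SD 10.5), and its ileum range was apart from both. The carnitine-acylcarnitine carrier Slc25a20 averaged 167 ± 23.8 FPKM in colon, 67.8 ± 14.7 in ileum and 37.1 ± 11.0 in duodenum. Acads, the short-chain acyl-CoA dehydrogenase, averaged 123 ± 14.5 FPKM in colon, 56.8 ± 15.1 in ileum and 38.7 ± 4.99 in duodenum. For both, every colon library was above every library of the other regions. Cpt1a, the entry enzyme of the carnitine shuttle, had the same order of means (82.2 ± 26.3 FPKM in colon, 42.4 ± 10.5 in ileum and 30.0 ± 8.39 in duodenum), but its ranges overlapped. Ppara itself was low in all regions, at 12.4 ± 4.30, 9.19 ± 3.97 and 8.09 ± 2.88 FPKM in duodenum, ileum and colon, with overlapping ranges.

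**Figure D1:**
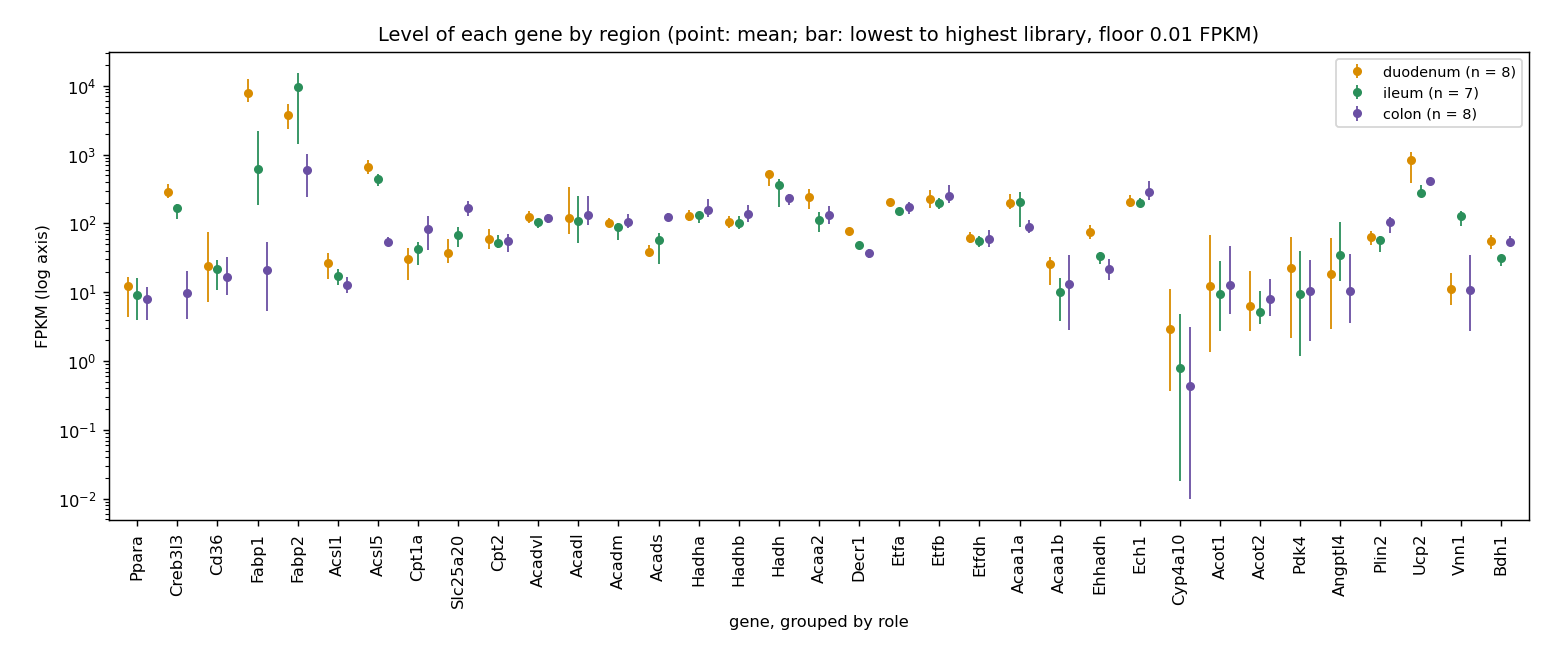
Mean FPKM of each of the 35 genes in duodenum, ileum and colon (log axis, with values below 0.01 drawn at 0.01); bars run from the lowest to the highest library of a region. Fabp1 falls from 7794 FPKM in duodenum to 21.3 in colon, and Slc25a20 and Acads are highest in colon.

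Treated and deficient libraries were compared region by region on log2(FPKM + 1) with limma, over the genes that reached 1 FPKM in at least 3 libraries. All 35 members were tested in duodenum and 34 in ileum and in colon, where Cyp4a10 fell below the filter. No member passed an adjusted p of 0.05 in any region. Across all genes, 0.0256% passed in duodenum, 0.0% in ileum and 0.0% in colon. The smallest adjusted p of a member was 0.526 in duodenum, 0.706 in ileum and 0.725 in colon. The log2 differences were positive for 30 of 35 members in duodenum, 25 of 34 in ileum and 30 of 34 in colon, against 51.9%, 51.7% and 47.3% of all genes tested. Their medians were 0.22, 0.29 and 0.20, against 0.011, 0.012 and -0.014 over all genes. At an unadjusted p under 0.05, 2, 7 and 5 members were higher in treated libraries and 0 were lower. Of all genes, 4.03% were higher and 5.37% lower at that level in duodenum, 3.09% and 2.74% in ileum, and 2.92% and 2.93% in colon. Without 3xD5720, 0, 8 and 1 members were higher at that level, where 2.71%, 2.65% and 3.07% of all genes were, so that the colon count is at the share of all genes. The differences were then positive for 30 of 35, 30 of 34 and 29 of 34 members, against 52.4%, 52.2% and 48.1% of all genes. Of the 30, 25 and 30 members positive with all libraries, 28, 25 and 29 were positive in both fits. With the kind of library name as a covariate the tallies were 21 of 35, 27 of 34 and 23 of 34, against 51.3%, 51.5% and 49.4% of all genes.

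Complete separation of the groups was uncommon. Every treated library was above every deficient library for 0 of 35 members in duodenum (1.99% of all genes), 6 of 34 in ileum (3.35% of all genes) and 2 of 34 in colon (2.22% of all genes). The 6 in ileum were Ppara, Fabp1, Cpt2, Hadha, Acaa2 and Ech1, and the 2 in colon were Acaa2 and Acot1. No member had every treated library below every deficient one, as 2.38%, 3.21% and 2.32% of all genes did. Signs were positive in all 3 regions for 20 of the 34 members tested in each, as for 22.2% of all genes, and negative in all 3 for Bdh1 alone (20.1% of all genes), the enzyme that interconverts the main ketone bodies (log2 difference -0.074 ± 0.14, -0.12 ± 0.15 and -0.082 ± 0.12, SE). The same library names recur in the 3 regions, so these signs are not independent.

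**Figure D2:**
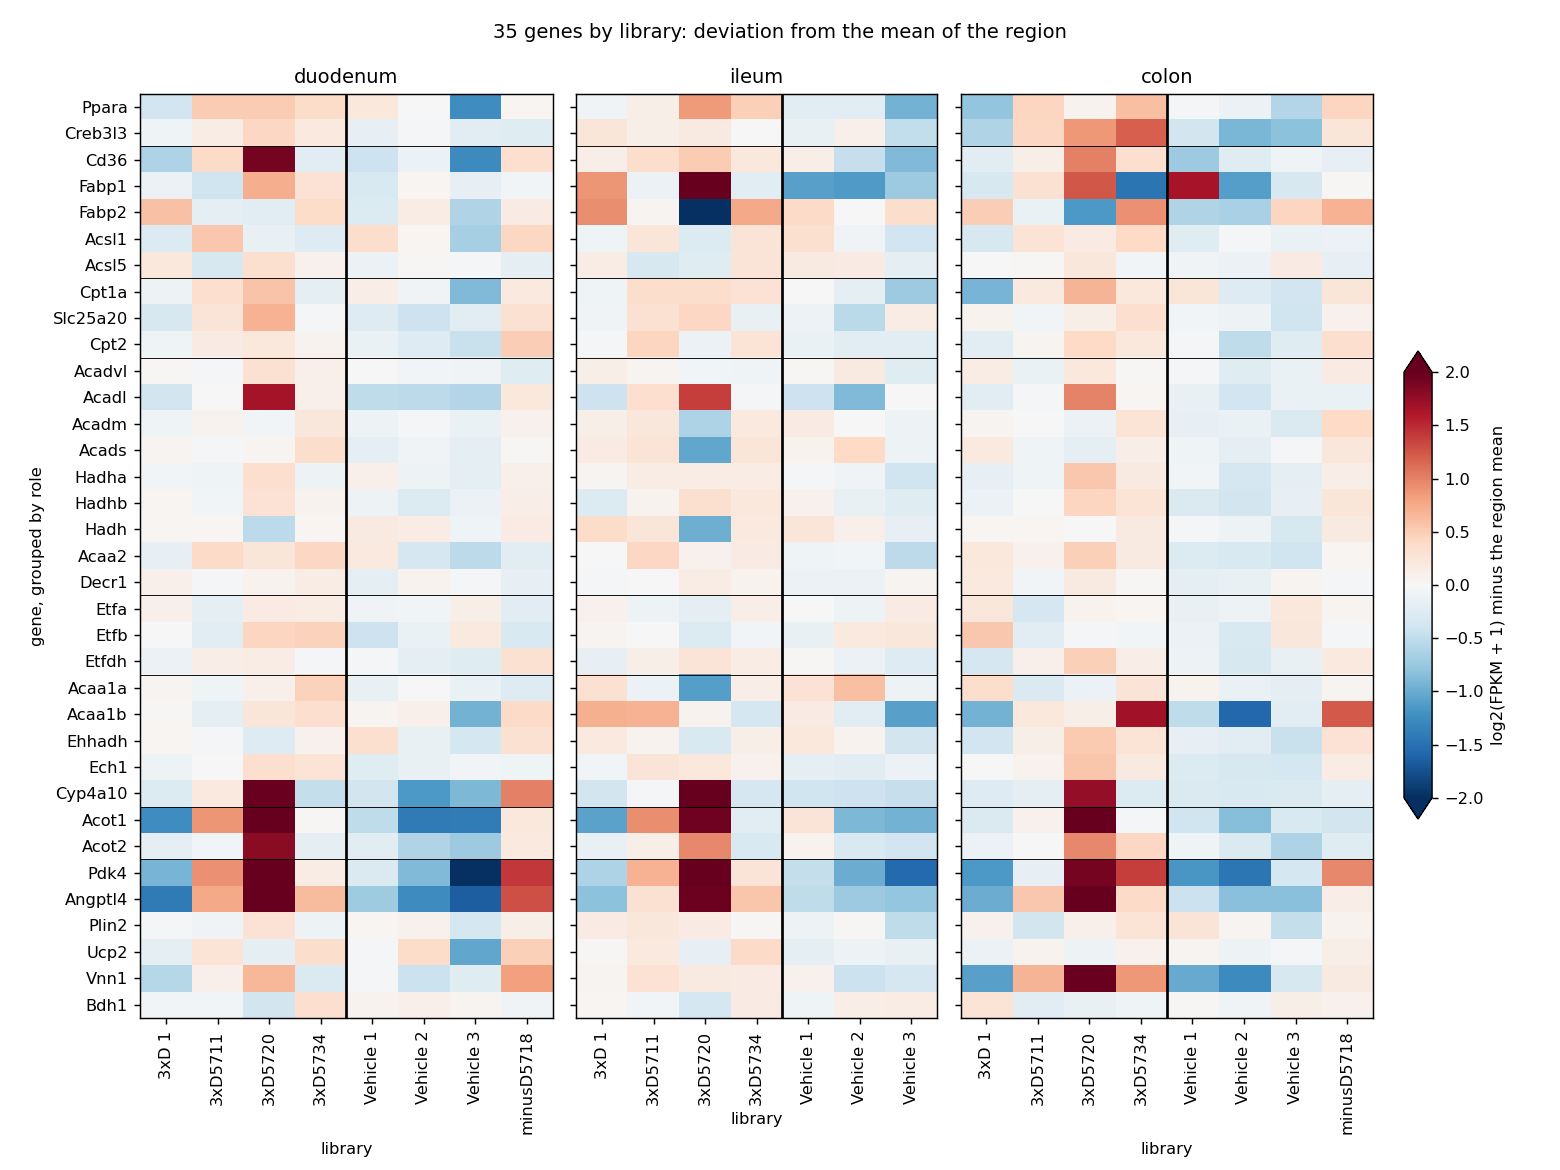
log2(FPKM + 1) of the 35 genes in the 23 libraries, each minus the mean of its region, with colour limits at 2 in either direction and a black line between treated and deficient libraries of each region. The column of 3xD5720 is the highest for 18 of 35 genes in duodenum, 13 of 35 in ileum and 18 of 35 in colon, with Cyp4a10 counted in each.

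**Figure D3:**
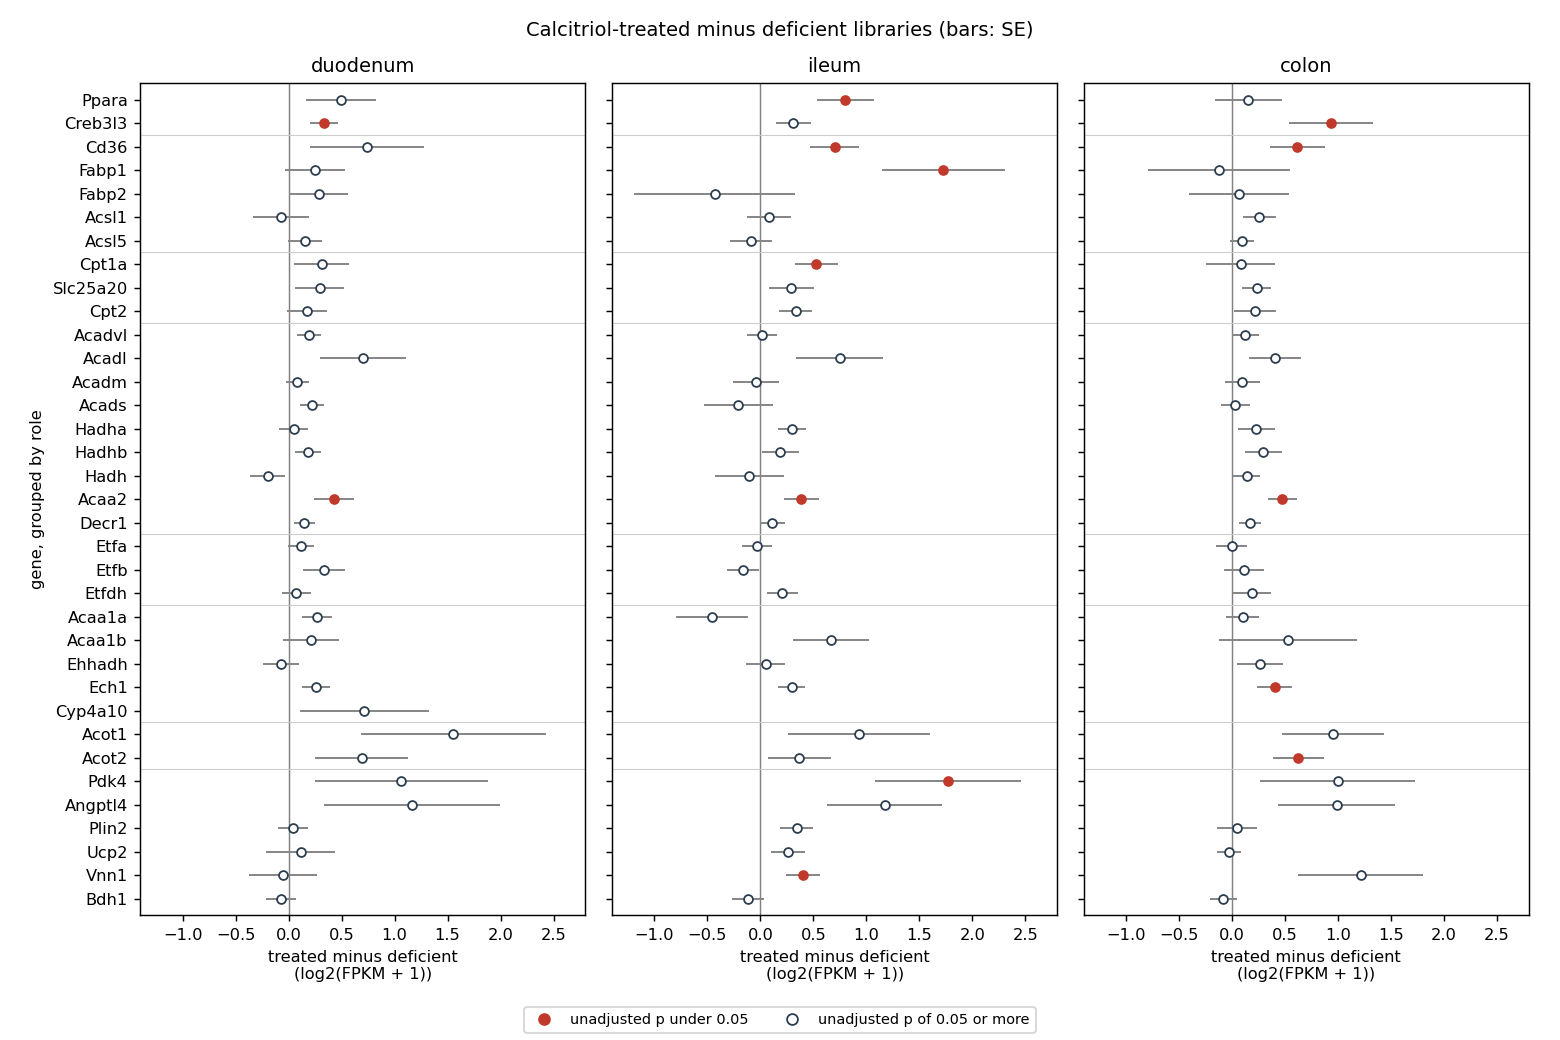
Treated minus deficient difference in log2(FPKM + 1) with its standard error for each gene, by region; filled red points have an unadjusted p under 0.05. Most points lie right of 0 (30 of 35, 25 of 34 and 30 of 34) and none passed an adjusted p of 0.05.

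The regulators are described first. Values of treated libraries are given in the order 3xD 1, 3xD5711, 3xD5720 and 3xD5734, and those of deficient libraries in the order Vehicle 1, Vehicle 2, Vehicle 3 and, outside the ileum, minusD5718. Ppara in ileum was at 8.09, 9.38, 16.2 and 12.3 FPKM in treated and 7.26, 7.19 and 3.96 FPKM in deficient libraries. The groups did not overlap, with 3xD5720 the highest and Vehicle 3 the lowest, and the log2 difference was 0.80 ± 0.27 (SE, limma, unadjusted p = 0.0168, adjusted p = 0.706). In duodenum Ppara was at 8.63, 16.9, 16.9 and 15.2 FPKM in treated and 13.6, 11.6, 4.33 and 11.9 FPKM in deficient libraries, and differed by 0.49 ± 0.33 (adjusted p = 0.610), or by 0.16 without Vehicle 3. In colon it was at 4.00, 10.7, 8.10 and 12.1 FPKM in treated and 7.48, 7.01, 4.76 and 10.6 FPKM in deficient libraries, and differed by 0.15 ± 0.32 (adjusted p = 0.957). The groups overlapped in both, and the serial treated library 3xD 1 was the lowest of the treated in all 3 regions. Without 3xD5734 or without Vehicle 3 the colon difference was -0.020 or -0.018, and without 3xD 1 it was 0.44.

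Creb3l3 in duodenum was at 264, 309, 371 and 321 FPKM in treated and 249, 274, 240 and 236 FPKM in deficient libraries. Only 3xD 1 fell within the deficient range, and the log2 difference was 0.33 ± 0.13 (unadjusted p = 0.0335, limma adjusted p = 0.526), the smallest unadjusted p of the module in that region. In colon, where its level is low, Creb3l3 was at 5.22, 11.5, 16.2 and 20.6 FPKM in treated and 6.29, 4.03, 4.33 and 10.2 FPKM in deficient libraries. The 4 libraries with 4-digit names were the 4 highest there, the deficient one included, and the difference between treatments was 0.93 ± 0.40 (adjusted p = 0.846).

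Among the genes of uptake and binding, Fabp1 in ileum had the largest difference. It was at 768, 383, 2181 and 360 FPKM in treated and 194.5, 188.2 and 249.9 FPKM in deficient libraries. Treated libraries were all above the deficient ones, with 3xD5720 far above the other 3, and differed by 1.73 ± 0.58 on the log2 scale (unadjusted p = 0.0173, limma adjusted p = 0.706). Without 3xD5720 the difference was 1.17 and the groups still did not overlap. In duodenum, where Fabp1 is most abundant, it was at 6986, 5766, 12475 and 9230 FPKM in treated and 6123, 7749, 6753 and 7272 FPKM in deficient libraries. The lowest and the highest library were both treated, and the difference was 0.25 ± 0.29 (adjusted p = 0.757). In colon Fabp1 was at 13.0, 20.6, 40.4 and 5.38 FPKM in treated and 53.8, 7.21, 13.1 and 16.9 FPKM in deficient libraries, and differed by -0.12 ± 0.67 (adjusted p = 0.983). That sign turned without 3xD5734 (0.34) or Vehicle 1 (0.40), and the value was -0.56 without 3xD5720.

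Fabp2, the intestinal fatty acid binding protein of the same cells, did not follow it. In ileum Fabp2 was at 15201, 8338, 1438 and 13470 FPKM in treated and 10429, 8028 and 10182 FPKM in deficient libraries. Library 3xD5720, the highest for Fabp1 in ileum, was the lowest for Fabp2, and the group difference was -0.43 ± 0.76 (adjusted p = 0.853). Without it the difference was 0.33. That library also had the lowest villus enterocyte marker sum in ileum, and the part of cell composition in these values was not tested.

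Cd36, a fatty acid translocase of the cell membrane, was at 22.7, 26.6, 29.8 and 24.0 FPKM in treated and 22.8, 14.7 and 10.8 FPKM in deficient ileum libraries. Treated 3xD 1 and deficient Vehicle 1 were nearly equal, and the difference was 0.70 ± 0.23 (unadjusted p = 0.0160, limma adjusted p = 0.706), or 0.46 without Vehicle 3. In duodenum Cd36 was at 12.2, 25.4, 75.1 and 16.5 FPKM in treated and 14.2, 17.5, 7.31 and 24.4 FPKM in deficient libraries. Library 3xD5720 was far above all others there, and the difference of 0.74 ± 0.54 (adjusted p = 0.629) was 0.22 without it and 0.44 without Vehicle 3. In colon Cd36 was at 13.2, 17.01, 32.2 and 19.9 FPKM in treated and 9.03, 13.1, 14.6 and 13.8 FPKM in deficient libraries, with only 3xD 1 inside the deficient range, and differed by 0.61 ± 0.26 (adjusted p = 0.846), or by 0.38 without 3xD5720. Cd36 is also abundant in adipocytes. The sum of 8 adipocyte markers was 150 to 212 FPKM in treated and 81.6 to 149 FPKM in deficient duodenum libraries, 374 to 564 and 311 to 405 FPKM in ileum, and 283 to 405 and 143 to 276 FPKM in colon. Of these markers 4, 7 and 6 passed the filter, and 4, 4 and 5 of them were higher in mean in treated libraries. At an unadjusted p under 0.05 there were 2, 0 and 4 of them, none was called, and their median differences were 0.50, 0.22 and 0.65. Adipoq, which defines adipocytes, differed by 0.31 (limma adjusted p = 0.792), 0.22 (adjusted p = 0.851) and 0.61 (adjusted p = 0.863). The part of adipocyte RNA in the Cd36 values was not tested. The acyl-CoA synthetases Acsl1 and Acsl5, which activate fatty acids, differed by -0.092 to 0.26 in the 3 regions.

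The carnitine shuttle moves acyl groups into mitochondria. Cpt1a in ileum was at 38.6, 53.0, 52.7 and 50.4 FPKM in treated and 41.1, 36.2 and 24.5 FPKM in deficient libraries. Only 3xD 1, the serial library, lay within the deficient range, and the difference was 0.53 ± 0.20 (unadjusted p = 0.0304, limma adjusted p = 0.706), or 0.32 without Vehicle 3. In duodenum Cpt1a was at 26.9, 36.8, 43.3 and 25.4 FPKM in treated and 31.8, 27.4, 15.2 and 33.4 FPKM in deficient libraries, and differed by 0.31 ± 0.26 (adjusted p = 0.668), or by 0.069 without Vehicle 3. In colon it was at 40.5, 89.7, 126.3 and 90.7 FPKM in treated and 92.4, 65.3, 59.5 and 92.8 FPKM in deficient libraries. The lowest and the highest of those were both treated, and the difference was 0.080 ± 0.32 (adjusted p = 0.979). It was -0.13 without 3xD5720, -0.036 without Vehicle 3 and 0.40 without 3xD 1. Slc25a20 and Cpt2 differed by 0.18 to 0.33 in the 3 regions, and none of these values passed.

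Of the 9 enzymes of mitochondrial beta-oxidation, Acaa2 is a thiolase, and its treated and deficient libraries did not overlap in ileum and colon. In colon it was at 149, 136, 180 and 145 FPKM in treated and 106, 104, 96.9 and 131 FPKM in deficient libraries. All treated libraries lay above all deficient ones, with minusD5718 the highest of the deficient, and the difference was 0.48 ± 0.13 (unadjusted p = 0.0063, limma adjusted p = 0.725). In ileum Acaa2 was at 109, 145, 116 and 123 FPKM in treated and 102, 106 and 75.9 FPKM in deficient libraries, again without overlap, and differed by 0.39 ± 0.17 (adjusted p = 0.706), or by 0.24 without Vehicle 3. In duodenum Acaa2 was at 207, 303, 275 and 311 FPKM in treated and 267.5, 185, 163 and 202 FPKM in deficient libraries. There the serial treated library lay below Vehicle 1, and the difference was 0.43 ± 0.19 (adjusted p = 0.528). The difference was positive within the serial libraries of each region (0.048, 0.22 and 0.54 in duodenum, ileum and colon) and within the 4-digit libraries of duodenum (0.55) and colon (0.21). Acadl and Decr1 were positive in the same sets, at 0.014 to 0.47 and 0.025 to 0.29.

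Acadl, the long-chain acyl-CoA dehydrogenase, stood out in a single library. In duodenum it was at 81.4, 105.9, 334.7 and 113.5 FPKM in treated and 73.8, 72.9, 69.8 and 122.4 FPKM in deficient libraries. The difference of 0.70 ± 0.41 (adjusted p = 0.577) was 0.27 without 3xD5720. Hadh, the medium- and short-chain hydroxyacyl-CoA dehydrogenase, went the other way in that library. In ileum Hadh was at 448, 411, 176 and 401 FPKM in treated and 412.5, 375.6 and 310.5 FPKM in deficient libraries, so that 3xD5720 was the lowest of all. Hadha and Hadhb, the subunits of the trifunctional protein, are transcribed in opposite directions from starts 85 bases apart on chromosome 5 (build NCBIM37), and differed by 0.047 to 0.30 and 0.18 to 0.29 in the 3 regions. Acads in duodenum was at 40.1, 37.7, 40.0 and 49.1 FPKM in treated and 33.3, 36.6, 33.5 and 39.3 FPKM in deficient libraries, with only 3xD5711 of the treated below minusD5718, and differed by 0.22 ± 0.11 (limma adjusted p = 0.552). The enzymes Acadvl, Acadm, Acads and Decr1 differed by -0.21 to 0.22. Over the 9 enzymes the median log2 difference was 0.18 in duodenum, 0.11 in ileum and 0.17 in colon.

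The electron transfer flavoprotein genes Etfa, Etfb and Etfdh pass electrons from the dehydrogenases to the respiratory chain. Their differences ranged from -0.16 to 0.33, with medians of 0.12, -0.031 and 0.11 in duodenum, ileum and colon. No value had an unadjusted p under 0.05.

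Among the peroxisomal members, Ech1, an enoyl-CoA isomerase of mitochondria and peroxisomes, was at 193, 237, 231 and 212 FPKM in treated and 176, 172 and 183.5 FPKM in deficient ileum libraries. The groups did not overlap, and the difference was 0.29 ± 0.13 (limma adjusted p = 0.706). In duodenum Ech1 was at 191, 206, 261 and 250 FPKM in treated and 174, 187, 199 and 195 FPKM in deficient libraries, and differed by 0.26 ± 0.13 (adjusted p = 0.552). In colon it was at 280, 296, 417 and 321 FPKM in treated and 232, 227, 220 and 314 FPKM in deficient libraries, and differed by 0.40 ± 0.17 (adjusted p = 0.846). The overlap in duodenum came from 3xD 1 and that in colon from minusD5718. Ehhadh, the peroxisomal bifunctional enzyme, differed by -0.069, 0.048 and 0.27. The thiolases Acaa1a and Acaa1b share 32.0% and 35.5% of their 50-base transcript windows with each other, so reads can be split between them. Acaa1a differed by 0.26, -0.46 and 0.099, with -0.16 in ileum without 3xD5720. Acaa1b differed by 0.21, 0.66 and 0.52, and its colon value ran from 0.053 without 3xD5734 to 1.02 without minusD5718.

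Cyp4a10, the omega-hydroxylase that is among the genes most responsive to PPAR-alpha in liver, was nearly silent in all but a few libraries. In duodenum it was at 1.51, 2.49, 11.0 and 1.18 FPKM in treated and 1.35, 0.366, 0.624 and 5.09 FPKM in deficient libraries, and differed by 0.71 ± 0.61 (limma adjusted p = 0.671). That difference was 0.17 without 3xD5720, 0.45 without Vehicle 2 and 1.17 without minusD5718. The duodenum values rest on 20 to 334 reads. In ileum it was at 4.79 FPKM in 3xD5720 (137 reads) and at most 0.366 FPKM in the others, and in colon at 3.17 FPKM in 3xD5720 (90 reads) and at most 0.0973 FPKM in the others. Up to 23.9% of its transcript windows occur in a neighbouring Cyp4a gene, so its reads can be split too.

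The thioesterases Acot1 and Acot2 release fatty acids from CoA in the cytosol and in mitochondria. They lie 15624 bases apart on chromosome 12, and 34.8% of the 50-base windows of Acot1 occur in Acot2, so the reads of either may include the other's. Acot1 in duodenum was at 1.67, 10.7, 68.3 and 5.43 FPKM in treated and 3.47, 1.38, 1.39 and 6.33 FPKM in deficient libraries. Treated libraries 3xD 1 and 3xD5734 lay within the deficient range, and the difference of 1.55 ± 0.88 (limma adjusted p = 0.573) was 0.66 without 3xD5720. In colon Acot1 was at 7.68, 10.2, 46.3 and 9.37 FPKM in treated and 7.07, 4.91, 7.61 and 7.28 FPKM in deficient libraries. These groups did not overlap, by a margin of 7.68 against 7.61 FPKM, and differed by 0.95 ± 0.48 (adjusted p = 0.863), or by 0.39 without 3xD5720. Acot2 in colon was at 6.77, 7.41, 15.4 and 10.2 FPKM in treated and 6.97, 5.88, 4.48 and 6.10 FPKM in deficient libraries, with 3xD 1 just under Vehicle 1, and differed by 0.62 ± 0.24 (unadjusted p = 0.0285, adjusted p = 0.846), or by 0.41 without 3xD5720.

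Among the other targets, Pdk4 and Angptl4 had the largest differences in duodenum and ileum, and Vnn1 in colon. Pdk4 is the kinase that shuts pyruvate dehydrogenase when fatty acids are burnt. In ileum it was at 3.16, 9.34, 40.2 and 6.67 FPKM in treated and 3.61, 2.20 and 1.17 FPKM in deficient libraries. The serial treated library lay inside the deficient range and the other treated libraries above it, and the difference was 1.77 ± 0.69 (unadjusted p = 0.0330, limma adjusted p = 0.706). In duodenum Pdk4 was at 7.50, 29.7, 63.3 and 16.9 FPKM in treated and 12.2, 7.76, 2.14 and 42.2 FPKM in deficient libraries. The deficient library minusD5718 was the second highest there, and the difference was 1.06 ± 0.82 (adjusted p = 0.646). In colon Pdk4 was at 2.65, 6.24, 29.6 and 20.2 FPKM in treated and 2.61, 1.97, 5.35 and 14.7 FPKM in deficient libraries, and differed by 1.00 ± 0.73 (adjusted p = 0.893). The 4-digit libraries were again the highest 4. Without 3xD5720 the Pdk4 differences were 0.58, 1.12 and 0.53 in duodenum, ileum and colon. In duodenum the value was 0.45 without Vehicle 3 and 1.71 without minusD5718, and in colon it was 1.55 without 3xD 1.

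Angptl4, a secreted inhibitor of lipoprotein lipase, showed the same layout. In duodenum it was at 3.64, 19.9, 61.7 and 18.2 FPKM in treated and 6.56, 4.14, 2.94 and 29.2 FPKM in deficient libraries. The 4-digit libraries were at 18.2 FPKM or more whatever the treatment, and the serial libraries at 6.56 FPKM or less. In ileum Angptl4 was at 14.4, 32.8, 105.6 and 39.3 FPKM in treated and 18.3, 15.4 and 15.0 FPKM in deficient libraries, so that the serial treated library was the lowest of all. In colon it was at 3.52, 12.1, 36.0 and 10.7 FPKM in treated and 5.64, 4.02, 4.04 and 8.88 FPKM in deficient libraries, with the serial treated library again the lowest. The treatment differences were 1.16 ± 0.83 in duodenum (limma adjusted p = 0.624), 1.17 ± 0.55 in ileum (adjusted p = 0.706) and 0.99 ± 0.55 in colon (adjusted p = 0.884). Without 3xD5720 they were 0.57, 0.68 and 0.47, and without 3xD 1 they were 1.83, 1.61 and 1.48. In duodenum the value was 1.79 without minusD5718.

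Vnn1 in colon was at 3.23, 13.4, 34.3 and 15.3 FPKM in treated and 3.47, 2.72, 6.16 and 9.14 FPKM in deficient libraries, a difference of 1.22 ± 0.59 (limma adjusted p = 0.863), or of 0.76 without 3xD5720. The 4-digit libraries were the highest 4 here as well. In ileum, its region of highest level, Vnn1 differed by 0.40 ± 0.16 (unadjusted p = 0.0337, adjusted p = 0.706). Plin2, the coat protein of lipid droplets, differed by 0.043, 0.34 and 0.045, and the mitochondrial carrier Ucp2 by 0.11, 0.26 and -0.031.

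**Figure D4:**
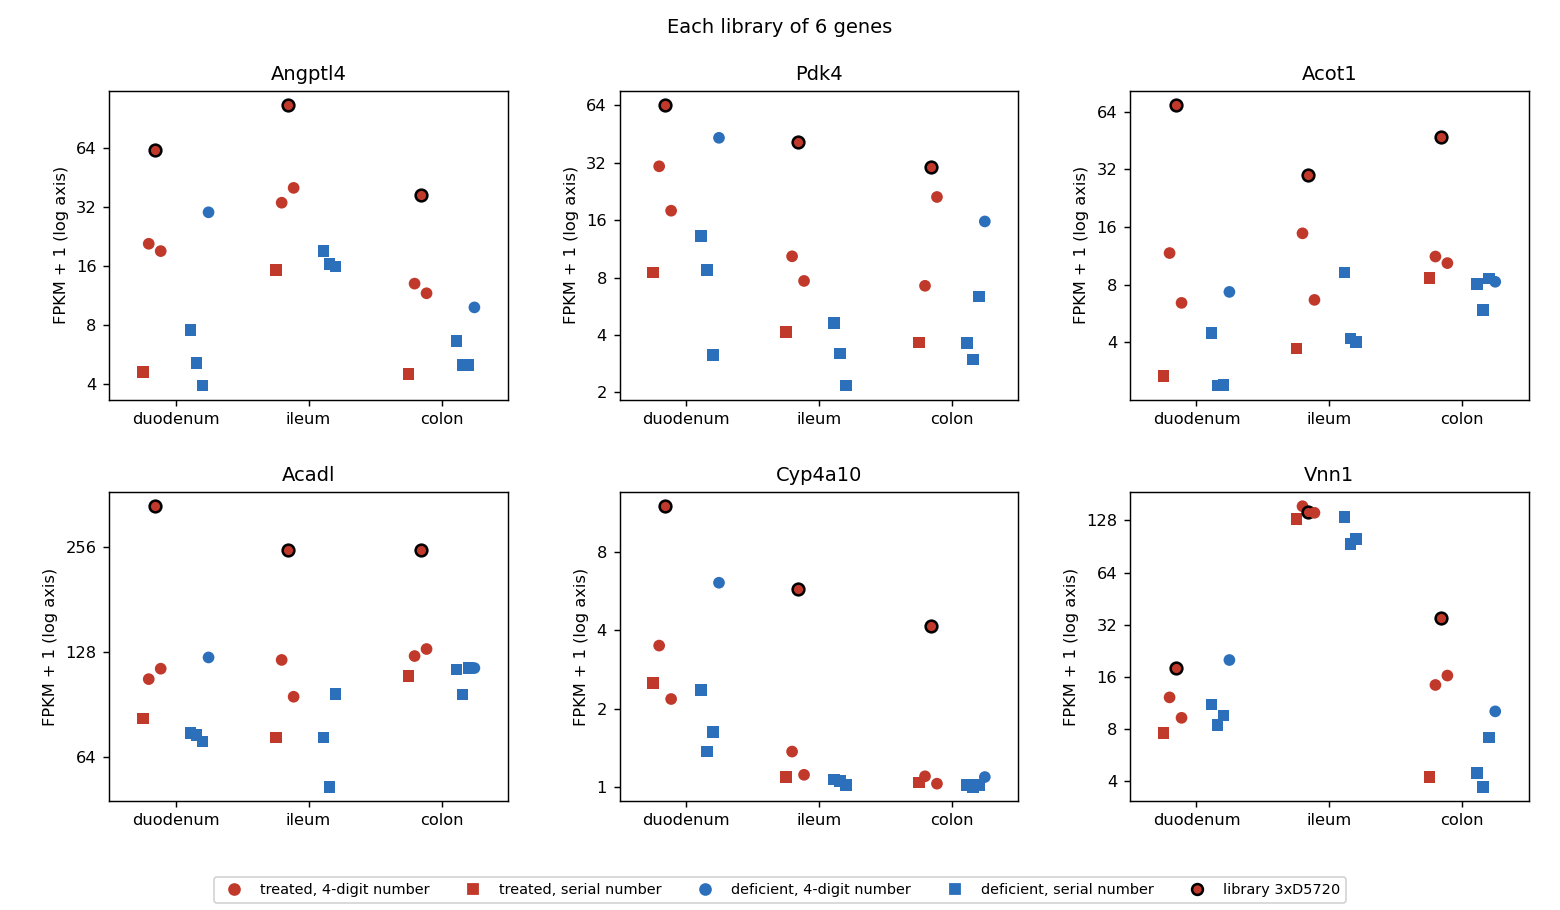
FPKM + 1 (log axis) of Angptl4, Pdk4, Acot1, Acadl, Cyp4a10 and Vnn1 in each library by region; red is treated, blue deficient, circles are 4-digit and squares serial libraries, and a black ring marks 3xD5720. The ringed circle is the highest point for Angptl4, Pdk4, Acot1 and Acadl in all 3 regions, and the blue circle of the duodenum sits among the red ones for Angptl4 and Pdk4.

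Since the library names are tied to treatment, the 4-digit and serial libraries were compared at equal treatment in a limma fit with both terms. No member passed an adjusted p of 0.05 in this comparison either. Across all genes 0.256%, 0.0% and 0.149% passed in duodenum, ileum and colon. Member differences had medians of 0.20, 0.12 and 0.31, against at most 0.0060 over all genes. For treatment the member medians were 0.22, 0.29 and 0.20. At an unadjusted p under 0.05, 7, 2 and 12 members were higher in 4-digit libraries and 0 lower, where 4.5%, 1.29% and 15.7% of all genes were higher at that level and 3.22%, 1.21% and 10.9% lower. Every 4-digit library was above every serial library for 7 of 35 members in duodenum (4.35% of all genes), 10 of 34 in ileum (7.84%) and 12 of 34 in colon (7.36%). Pdk4 and Angptl4 were in this count in all 3 regions. In ileum the comparison rests on treated libraries alone, and 3xD 1 is the only serial library among them. The comparison of name kinds shares its libraries with the comparison of treatments.

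The values by gene were large for the targets with the widest spread. In duodenum Angptl4 was higher by 2.58 ± 0.44 in 4-digit libraries (limma adjusted p = 0.0956) and Pdk4 by 2.27 ± 0.59 (adjusted p = 0.391). Without 3xD5720 the Angptl4 value was 2.31 and its adjusted p 0.0142, the only member called there, where 0.266% of all genes were. In colon Creb3l3 was higher by 1.18 ± 0.24 (adjusted p = 0.0788), Ehhadh by 0.62 ± 0.14 (adjusted p = 0.0833), Ppara by 0.91 ± 0.21 (adjusted p = 0.0843), Pdk4 by 2.07 ± 0.51 (adjusted p = 0.0877) and Vnn1 by 1.65 ± 0.42 (adjusted p = 0.0915). Leaving out minusD5718, the sole deficient 4-digit library, left the name kind term to 3xD 1 alone against the treated 4-digit libraries. In duodenum and colon no treated serial replicate stands behind that fit, so no conclusion is drawn from its counts of genes. Depth, the Xist count and, in duodenum, the stomach marker sums given above also differ between the name kinds, and their part was not tested.

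Within a name kind the treatment difference was smaller. The median over members was 0.055 in the serial and 0.039 in the 4-digit libraries of the duodenum, 0.12 in the serial libraries of the ileum, and 0.13 and 0.023 in the serial and 4-digit libraries of the colon. Each of these sets 1 library against 3, so they carry no test of their own. With the name kind as a second term, the medians were 0.11 in duodenum and 0.064 in colon and no member was called. In ileum that fit sets 3xD 1 alone against the 3 Vehicle libraries, so its median of 0.12 is that of the serial libraries and no treated replicate stands behind it. Angptl4 in duodenum was then at -0.13 and Pdk4 at -0.074, against 1.16 and 1.06 without the term. The values of Fabp1 (1.87), Cd36 (0.54) and Ppara (0.39) stayed positive within the serial ileum libraries.

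**Figure D5:**
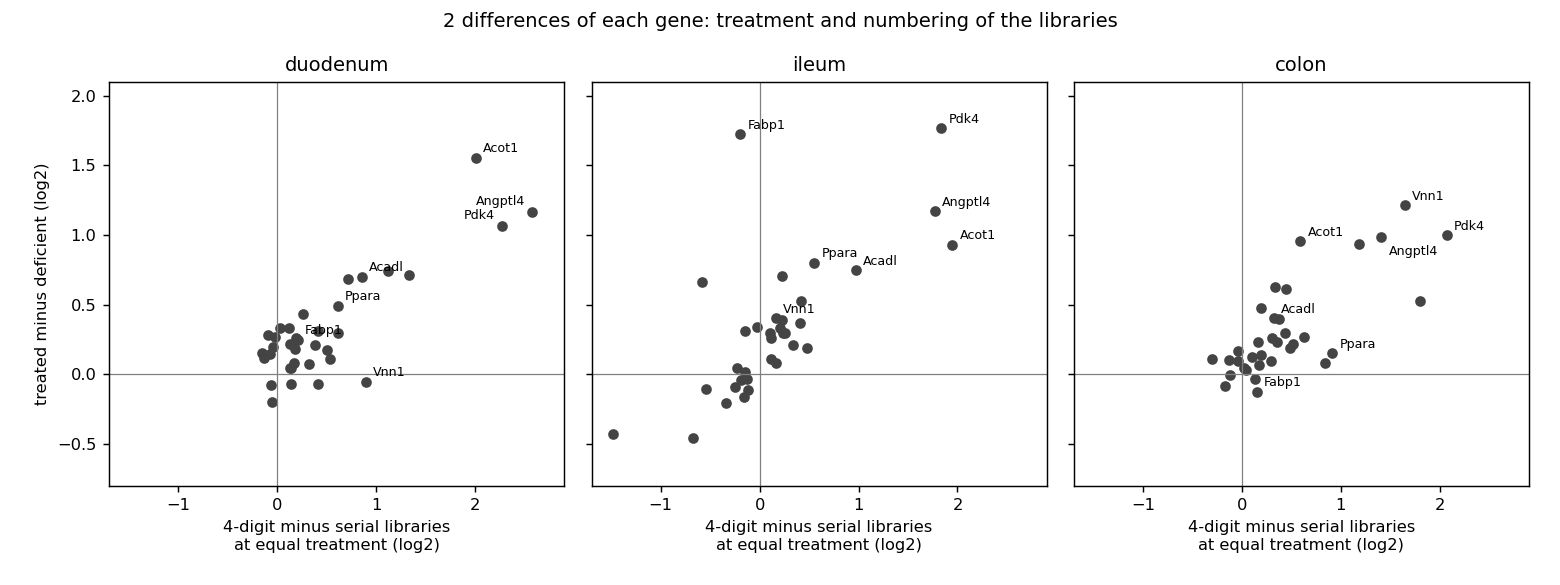
For each gene and region, the 4-digit minus serial difference at equal treatment (x axis) and the treated minus deficient difference (y axis), both in log2(FPKM + 1). Angptl4 in duodenum lies at 2.58 and 1.16 and Pdk4 at 2.27 and 1.06; both axes use the same libraries.

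Library 3xD5720 was then described by itself, a pattern chosen after the values were seen. It was the highest of all libraries for 18 of 35 members in duodenum (17.2% of all genes), 12 of 34 in ileum (27.1%) and 17 of 34 in colon (17.8%). For 7 of 34 members (Cd36, Acadl, Hadhb, Acot1, Acot2, Pdk4 and Angptl4) it was the highest in all 3 regions, as for 4.04% of all genes. On the log2(FPKM + 1) scale of the fits, it exceeded the mean of the other 3 treated libraries at least 2-fold for some members. There were 7, 6 and 6 of them in duodenum, ileum and colon, where 2.13%, 3.3% and 3.32% of all genes did so. Acadl, Acot1, Pdk4 and Angptl4 did so in all 3 regions, as did 0.543% of all genes. On the same scale 3xD5720 was at least 2-fold under that mean for 0 members in duodenum (2.39% of all genes). It was so for Fabp2, Acads, Hadh and Acaa1a in ileum (4.01%) and for Fabp2 in colon (2.15%). The liver transcript Alb was at 240.1 FPKM in its colon sample, 0.0666 FPKM in its duodenum and 0.141 FPKM in its ileum sample, and the part of RNA from other tissues in this pattern was not tested.

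The response was also compared between regions, in a fit over all 23 libraries. No member and none of the 11234 genes tested (0.0%) passed an adjusted p of 0.05 in duodenum minus ileum, duodenum minus colon or ileum minus colon. At an unadjusted p under 0.05 there were 1, 0 and 1 members and 516, 176 and 354 genes, with 2.5%, 0.863% and 1.54% of all genes positive at that level and 2.09%, 0.703% and 1.61% negative. The member between ileum and colon was Fabp1, with 1.85 ± 0.84 (limma adjusted p = 0.963), and between duodenum and ileum it was Acaa1a, with 0.72 ± 0.34 (adjusted p = 0.825). Acaa1a was at -0.56 ± 0.34 for ileum minus colon (adjusted p = 0.963), and Etfb at 0.49 ± 0.27 for duodenum minus ileum (adjusted p = 0.825). The Fabp1 response in duodenum minus that in ileum was -1.48 ± 0.84 (adjusted p = 0.825). The Creb3l3 response in duodenum and in ileum minus that in colon was -0.60 ± 0.40 (adjusted p = 0.9996) and -0.62 ± 0.41 (adjusted p = 0.963). For duodenum minus colon Vnn1 was at -1.27 ± 0.64 and Ehhadh at -0.34 ± 0.28 (adjusted p = 0.9996 for both).

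The other genes of the route were taken from 5 lists of 76 genes (peroxisomal and omega oxidation, other mitochondrial enzymes, ketone bodies, PPAR receptors with partners and coregulators, and further PPAR targets). Of these 63, 66 and 67 were tested in duodenum, ileum and colon, and 0 passed in either direction. Their differences were positive for 40, 42 and 40 genes, against 51.9%, 51.7% and 47.3% of all genes, with medians of 0.062, 0.084 and 0.084. At an unadjusted p under 0.05, 2, 6 and 2 were higher, against 4.03%, 3.09% and 2.92% of all genes, and 3, 1 and 1 lower, against 5.37%, 2.74% and 2.93%. The counts of higher genes in duodenum and colon are thus near the share of all genes. Genes with the smallest p of a list and region were as follows. For ketone bodies they were Acat1 in ileum (0.32, limma adjusted p = 0.706) and Bdh2 in colon (0.47, adjusted p = 0.846). For peroxisomal and omega oxidation they were Pecr in ileum (0.45, adjusted p = 0.706) and the epoxide hydrolase Ephx2 in colon (0.44, adjusted p = 0.849). For other mitochondrial enzymes they were 9330129D05Rik in duodenum (-0.31, adjusted p = 0.549), Acsl3 in ileum (0.34, adjusted p = 0.706) and the enoyl-CoA isomerase Peci in colon (0.46, adjusted p = 0.846). For further PPAR targets they were the monoglyceride lipase Mgll in duodenum (0.50, adjusted p = 0.499) and colon (0.44, adjusted p = 0.863) and the retinol saturase Retsat in ileum (0.76, adjusted p = 0.706). Among receptors, partners and coregulators they were the hepatocyte nuclear factor Hnf4a in duodenum (-0.47, adjusted p = 0.499) and colon (-0.40, adjusted p = 0.846), and the estrogen-related receptor Esrra in ileum (-0.59, adjusted p = 0.706). On the log2(FPKM + 1) scale the peroxisome proliferation factor Pex11a was at least 2-fold higher in 3xD5720 than the mean of the other treated libraries in all 3 regions. Its values in that library were 44.1, 40.1 and 33.8 FPKM in duodenum, ileum and colon. Between name kinds at equal treatment, 4 of 63, 1 of 66 and 25 of 67 genes in duodenum, ileum and colon were higher in 4-digit libraries at an unadjusted p under 0.05, against 4.5%, 1.29% and 15.7% of all genes, and 1, 1 and 2 were lower. None was called.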

How the data were processed

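Poly(A) RNA-seq of mouse duodenum, ileum and colon was used. The authors deposited FPKM values per gene and library. The labels' protocols name mapping in CLC Genomics Workbench, and the submitters' processing notes list kallisto 0.45.0, DESeq 1.14.0, DESeq2 and the build mm9. Which of these made the FPKM values is not stated there.

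For the ileum the 7-column table was used, because 171528 of the 171528 values of the 8-column ileum table equal those of the duodenum table. Columns named Vehicle were taken as deficient samples. The columns carry no replicate number of the labels, so sex and age could not be tied to columns. The labels name no animals, so p-values measure the spread between these samples, which may in part be technical.

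Values were tested as log2(FPKM + 1), a scale that understates the change of low genes, with limma 3.58.1 (R 4.3.3; lmFit, and eBayes with a trend), two-sided. Genes needed at least 1 FPKM in at least 3 libraries. Each region was fitted by itself, p-values were adjusted over all genes tested by Benjamini-Hochberg, and the threshold was an adjusted p of 0.05. Differences between regions came from 1 fit of 6 group means, which takes same-named libraries of different regions as independent. A further fit with name kind as a second term gave the 4-digit against serial difference. The fits were checked on simulated data. Tables and figures were made with Python 3.11.15, pandas 2.3.3, numpy 2.4.6 and matplotlib 3.10.9.

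FPKM steps of low genes gave whole reads (tolerance 0.0001) for 82.7%, 82.7% and 82.8% of genes found in at least 2 libraries of duodenum, ileum and colon. Read totals cover these genes only, and the rule was tuned after values were seen.

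By the rule for named genes, values are given for the 4 members with the smallest p and the 2 with the largest difference of each region, the 3 with the smallest p of each difference between regions, and Ppara, Cpt1a, Pdk4, Cyp4a10, Angptl4 and Fabp1. The 1 gene with the smallest p of each list and region is given too, where it is reported here. Other genes were named after their values were seen. The members and gene lists were chosen with earlier results of these data known. Alternatives tried were other pseudocounts and filters, the name kind as covariate, each name kind alone, a replicate block and leaving out each library.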

Additional observations from a re-analysis of the deposited data

Results flagged for a closer look

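Members were screened for a library far from the others of its group of 4, by Dixon's test at the 95% level. The screen used FPKM and was not run on the log2 scale of the fits, where flags may differ. Of 175 groups 21 were picked out. About 8.8 would be due by chance at 1 in 20 if FPKM were normally distributed within a group, which was not checked. The groups share libraries, so they are not independent. Library 3xD5720 accounted for 14 of the 21. The ileum's 3 deficient libraries were too few to be screened.

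In the treated duodenum group, 3xD5720 was the highest for Acadl (334.7 FPKM, others 81.4 to 113.5), Hadha (159.4, others 116.4 to 120.5), Cyp4a10 (11.0, others 1.18 to 2.49), Acot1 (68.3, others 1.67 to 10.7), Acot2 (20.6, others 4.37 to 4.96) and Plin2 (76.5, others 58.1 to 61.0). It was the lowest for Hadh, the hydroxyacyl-CoA dehydrogenase (355.5 FPKM, others 520.9 to 526.1). In the treated ileum group it was the highest for Cyp4a10 (4.79 FPKM, others 0.0921 to 0.366) and Pdk4 (40.2, others 3.16 to 9.34), and the lowest for Acadm, the medium-chain dehydrogenase (57.0, others 95.6 to 102.3), and Acads (26.0, others 61.3 to 65.9). In the treated colon group it was the highest for Acadl (250.4 FPKM, others 108.2 to 129.5), Cyp4a10 (3.17, others 0.0278 to 0.0973) and Acot1 (46.3, others 7.68 to 10.2).

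The deficient library minusD5718 was the highest of its group for Acadl (122.4 FPKM, others 69.8 to 73.8) and Angptl4 (29.2, others 2.94 to 6.56) in duodenum and for Ech1 (314.3, others 220.1 to 232.4) in colon. The other 4 were Acsl1 in the treated duodenum (3xD5711, 37.7 FPKM, others 20.9 to 22.9), Hadh in the deficient duodenum (Vehicle 3 lowest, 480.0, others 565.6 to 576.0), Hadha in the treated ileum (3xD 1 lowest, 138.3, others 148.2 to 148.4) and Acadl in the deficient colon (Vehicle 2 lowest, 95.6, others 112.9 to 114.0).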

How the results depend on the processing

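Counts of genes called changed as follows. With a pseudocount of 0.1 there was 1 in duodenum (3 in the reported fit), 1 for name kind in ileum (0), 10 in colon (19), and 1 each for the response differences duodenum minus ileum and duodenum minus colon (0). Without a filter there was 1 in ileum (0), 9 and 5 for name kind in ileum and colon, and 1 for ileum minus colon (0). With a mean of at least 1 FPKM there was 1 in duodenum and 10 for name kind in colon. With name kind as covariate there was 1 in duodenum and 2 in colon (0). No member was among those called in these fits.

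The member median for treatment was 0.039 in the 4-digit duodenum libraries and 0.12 in ileum with the covariate or in serial libraries. Signs were followed only for the members that the rule for named genes gave for each region. Other members turned too, such as Acot1 in the serial ileum libraries (-0.53). Among the named ones, signs turned under the covariate for Angptl4 in duodenum (-0.13) and ileum (-0.16), Pdk4 in duodenum (-0.074) and colon (-0.037), and Ppara (-0.30) and Cpt1a (-0.34) in colon. In serial libraries they turned for Acot1 (-0.14), Angptl4 (-0.21) and Ppara (-0.046) in duodenum, Angptl4 in ileum (-0.16), and Vnn1 (-0.22), Pdk4 (-0.16), Ppara (-0.55), Cpt1a (-0.80) and Angptl4 (-0.29) in colon. In 4-digit libraries they turned for Angptl4 (-0.047), Pdk4 (-0.40) and Cyp4a10 (-0.44) in duodenum and Ppara in colon (-0.057). The cause was not tested.

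Leaving out each library gave 1 to 4, 0 to 0 and 0 to 3 genes called for treatment in duodenum, ileum and colon, with member medians of 0.16 to 0.27, 0.18 to 0.31 and 0.13 to 0.33. For name kind it gave 14 to 43, 0 to 3 and 0 to 2435 genes, 0 to 1, 0 to 0 and 0 to 5 members, and medians of 0.19 to 0.37, 0.09 to 0.12 and 0.25 to 0.36. For the response differences it gave 0 to 1, 0 to 1 and 0 to 2 genes, and medians of -0.11 to 0.05, -0.11 to 0.09 and -0.16 to -0.01. Without minusD5718 the name kind term sets 3xD 1 alone against the treated 4-digit libraries. The lowest gene count for name kind in duodenum came from that fit, as did the highest gene and member counts in colon. No conclusion is drawn from these counts, because no treated serial replicate stands behind them. Among the same named members, treatment signs turned in colon for Ppara (-0.020 to 0.44), Cpt1a (-0.13 to 0.40) and Fabp1 (-0.56 to 0.40).

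With the library number as a replicate block, 1 gene and 0 members were called for duodenum minus ileum. The numbers did not pair the regions by the rule set: correlations of same-numbered libraries were 0.0979 to 0.588, -0.0519 to 0.444 and 0.0217 to 0.407, not all above 0.1. Some libraries still matched their namesake best, 3xD5720 in every pair of regions (0.519, 0.444 and 0.407). Others did not, such as 3xD5711 between duodenum and ileum (0.0979). Within a region no paired analysis was possible because the columns carry no replicate number of the labels.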
